A study of Mus musculus with 2 samples.

Results

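Chemokines are small secreted proteins that guide leukocytes along gradients, and they act through G-protein-coupled receptors on the cells that respond. Ligands and receptors are named after the spacing of conserved cysteines in the ligand (CC, CXC, CX3C and XC), and most inflammatory ligands share receptors while several homeostatic ones have a single main partner. Myeloid progenitors are held in the bone marrow by Cxcl12 acting on Cxcr4, and macrophages secrete CC and CXC chemokines that recruit monocytes, neutrophils and T cells. The chemokine and chemokine receptor genes were taken by name from the deposited table of DNase I hypersensitivity. Every gene whose symbol begins with Ccl, Ccr, Cxcl or Cxcr and a number was kept, together with Cx3cl1, Cx3cr1, Xcl1, Xcr1, Pf4 and Ppbp. Where several transcripts of a gene were listed, the one that touched the most windows was used. This gave 59 of the 22605 genes, 39 ligands and 20 receptors, and the ligands were compared with the receptors.

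The cells were M1 cells, a mouse myeloid leukemia line of immature progenitors, grown in RPMI medium with horse serum at passages 15 to 18. One culture was left untreated and the other received IL-6, a cytokine that drives M1 cells toward macrophages, for 4 to 5 days by the labels. In DNase I hypersensitive site sequencing (DHS-seq) nuclei are digested lightly, so that open chromatin is cut more often, and the short fragments are sequenced. There was 1 library per condition, so no difference has a replicate check, no p-value is given, and culture and treatment cannot be told apart.

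The table gives the mean signal over 700-bp windows, those that lie between the start and stop codon of a transcript or overlap its ends, so the values are per length and genes can be compared. Counted once, the coding spans of the autosomes and X contained 9102320 reads of the untreated library and 8544903 reads of the IL-6 library. The members held 5610 and 3980 reads over 343 windows, and no window belonged to more than 1 member. A read of the IL-6 library counts as 1.038 in the table. Intervals are 95% Clopper-Pearson intervals of the ratio of reads after this scaling, and they cover counting error only. A lower signal in every cell and a lower share of cells with an open site cannot be told apart in such bulk libraries. The 14 myeloid marker genes in the table ranged in untreated cells from 2.75 reads per window at Emr1 to 129 at Cd68, against a median of 7.75 over all genes. Their median level of 12.5 was near those of T cell and epithelial markers and above those of B cell, erythroid and hepatocyte markers. It went to 9.92 with IL-6, with log2 ratios from −2.31 at Cd68 to 0.41 at Kit. The T cell markers went from 10.5 to 12.5, the B cell markers from 6.67 to 9.23 and the epithelial markers from 11.5 to 14.3. Erythroid markers went from 6.39 to 8.98 and hepatocyte markers from 4.85 to 5.59. The part of these shifts in the results below was not tested.

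The receptor genes had more reads per window than the ligand genes. In untreated cells the median level was 16.9 reads per window over the 20 receptors (range 6.33 to 136) and 5.50 over the 39 ligands (range 0 to 76.5). The levels in IL-6-treated cells were 17.3 for receptors (7.96 to 44.9) and 7.27 for ligands (0 to 29.6), where all genes had a median of 8.14. The receptors were thus above the median of all genes in both libraries and the ligands below it. The range of each class was narrower at its upper end after IL-6. The ligands include genes whose windows are not unique in the genome, treated below. Without the 4 that had no reads in either library, the ligand medians were 6.33 in untreated and 7.71 in IL-6-treated cells. The GC content of the windows had a median of 47.4% for ligands and 48.0% for receptors, and of 45.6% for all genes.

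The highest levels in untreated cells were at 3 receptors and 2 ligands. Ccr10, a receptor for skin-homing and mucosal lymphocytes, had a mean of 136 reads per window, Ccl3, a ligand that attracts monocytes and T cells, had 76.5, and Ccl24, an eotaxin, had 52.8. Cxcr4 followed with 51.7 and Ccr6, the receptor of Ccl20, with 44.0. After IL-6, Ccr10 still had the highest level with 44.9 reads per window, followed by Ccl24 and Cxcr7 with 29.6 each. Ccr8, a receptor of regulatory T cells, had 28.7 and Ccr4, a receptor of type 2 helper T cells, had 27.5. The reads per window of the last pair could be recovered in order of size. The windows of Ccr8 held 31, 25 and 21 reads in untreated cells and 34, 27 and 22 after IL-6, and those of Ccr4 held 28 and 19 reads and then 33 and 20. The ranked reads of these 2 receptors were close in both libraries, and which window held which number is not known. The 9 members above them in untreated cells all had lower values after IL-6.

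**Figure D1:**
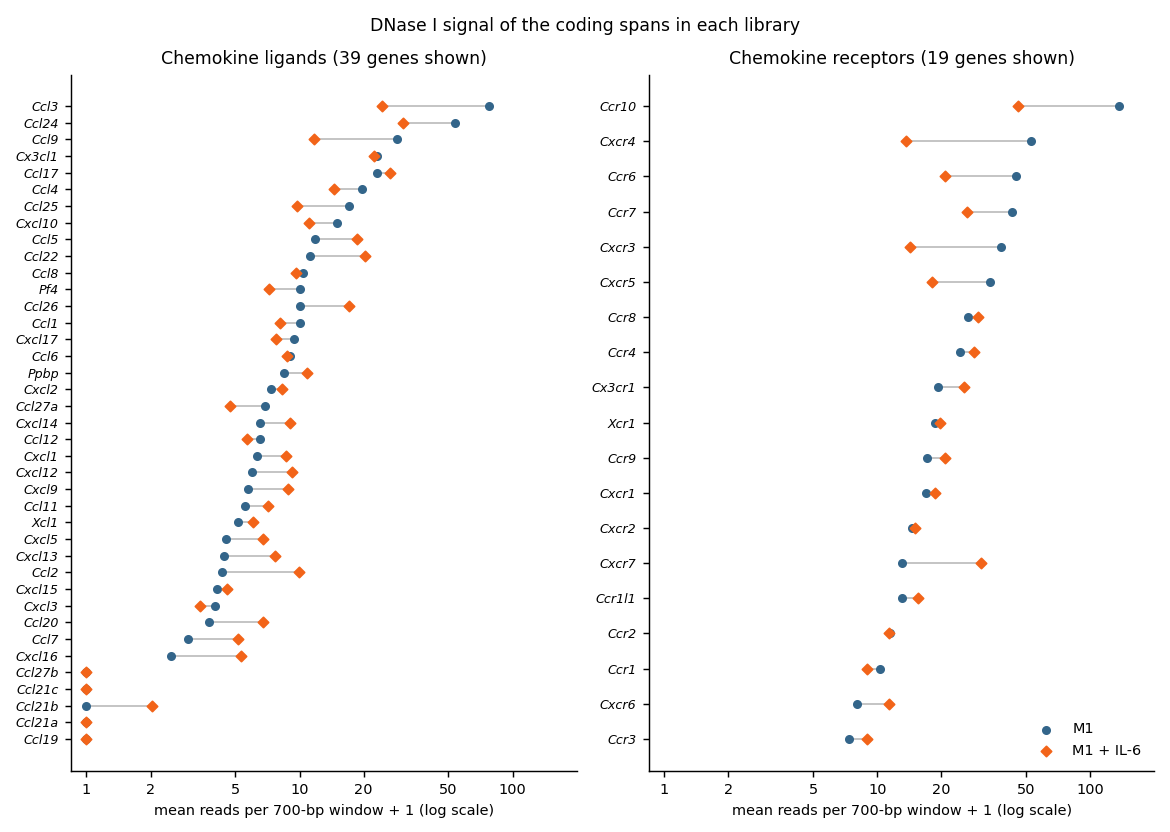
Mean reads per 700-bp window plus 1 (log scale) of the 39 ligands (left) and 19 of the 20 receptors (right) in the library of untreated M1 cells (blue circles) and of IL-6-treated cells (orange diamonds, scaled as in the table), with 1 library per point. The receptors lie further to the right, with a median of 16.9 reads per window in untreated cells against 5.50 for the ligands, and the longest gray lines point to lower values at Ccl3, Ccr10 and Cxcr4.

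The same order was seen in single windows. The authors' methods use more than 21 reads as the mark of an enriched site, and the mean, the SD and the number of windows bound the strongest window of each gene. In untreated cells 12 of 20 receptors had a window above 21 reads, against 9 of 39 ligands, and the bounds could not settle 1 receptor and 3 ligands. The 39 ligands include 5 without reads in untreated cells, which are treated below. After IL-6 the numbers were 12 receptors and 8 ligands, with 2 receptors and 3 ligands not settled. Such a window was present in both libraries at 10 receptors and 5 ligands. It was present in untreated cells and not after IL-6 at Cxcr3 and Cxcl10, and in IL-6-treated cells and not before at Cxcr7 and Ccl22, names that were picked after these values were seen. At Cxcr3 the strongest window after IL-6 was just under the limit, at 19.7 to 20.8 scaled reads. The share of all genes with such a window was not computed, so these counts have no background.

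The change with IL-6 was taken for genes that had over 21 reads in at least 1 library, with IL-6 reads scaled. These were 47 of the 59 members (28 ligands and 19 receptors) and 18472 genes in all. Before taking log2 ratios, 0.5 reads were added to both values, and a gene counts as 2-fold lower or higher when this value is at or beyond 1 on the log2 scale. At least 2-fold lower were 6 members, or 12.8%, beside 13.4% of all genes. At least 2-fold higher were 4 members, or 8.51%, beside 1.71% of all genes. The interval lay below 1 for 10 members (21.3%, all genes 34.4%) and above 1 for 10 members (21.3%, all genes 29%). The share of 2-fold lower members was thus close to that of all genes. Of the 4 higher genes, 3 (Cxcl16, Ccl2 and Ccl20) had more than 21 reads only in the IL-6 library, so the filter let them in through the library where they are high, and nothing is read from that count. Without the filter 5 of 55 members were at least 2-fold higher, beside 4.96% of all genes. The median log2 ratio of the 47 members was 0.16, with a range from −2.02 to 1.48, and that of all genes was 0.03. Lower and higher are meant on the scaling of the table, and a scaling to single-window genes adds 1.88 to every log2 ratio, which leaves Cxcr4 as the only member with a value under 0.

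**Figure D2:**
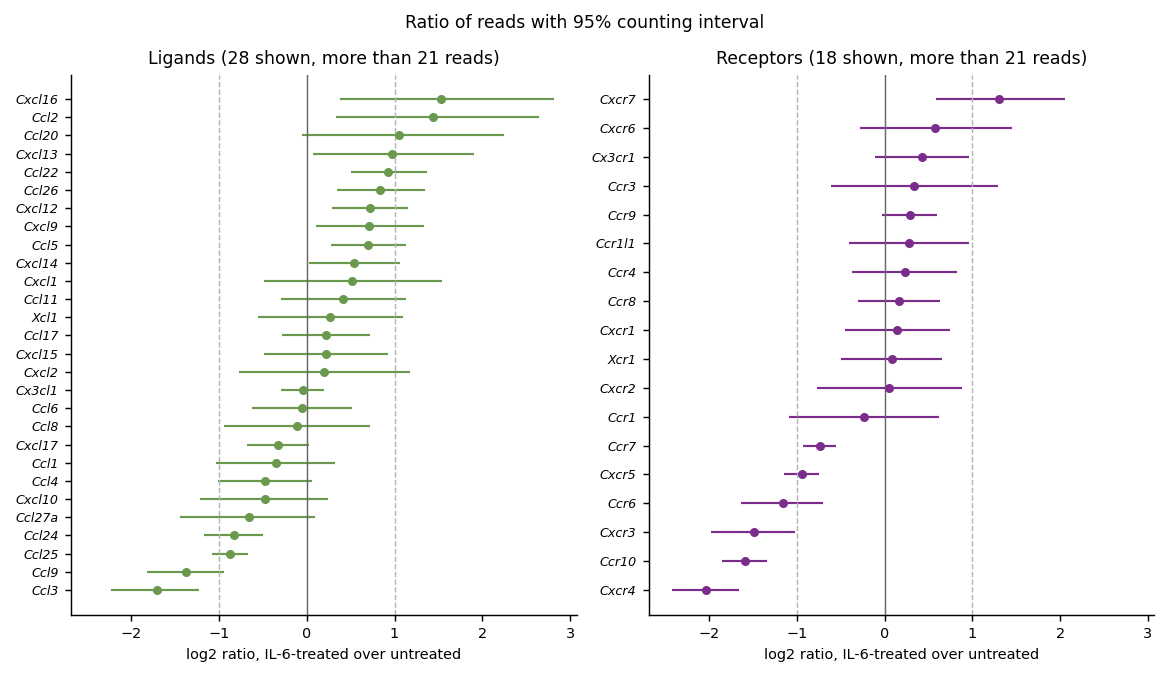
Log2 of the ratio of reads, IL-6-treated over untreated, for the 28 ligands (left) and 18 of the 19 receptors (right) that had over 21 reads in at least 1 library, without added reads. Bars are 95% counting intervals of 1 library against 1 library, and dashed lines mark 2-fold. The 6 receptors at the bottom, from Ccr7 to Cxcr4, have intervals below 1, and of the 10 ligands at the top 9, all but Ccl20, have intervals above 1.

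Cxcr4, the receptor that retains hematopoietic progenitors in the marrow, had the lowest ratio of all members. It is the 2-exon gene on the minus strand of chromosome 1 whose coding span runs from 130485420 to 130488786 on NCBIM37. Its 6 windows held 310 reads in untreated cells and 73 after IL-6, or 51.7 and 12.6 reads per window, which gave a ratio of 0.244 (0.187 to 0.316), or −2.02 on the log2 scale. This value was at the 1.42 percentile of all genes tested. A shorter transcript let the gene be split. The 5 windows that hold the start site and most of the gene went from 308 to 71 reads, while the window at the 3′ end had 2 reads in each library, so nearly all the reads were in the stretch that includes the start site. The 200 bases before the start site lie entirely in these windows. They are shown because they lie in the stretch that changed, though the change within its 5 windows is not resolved, at chr1:130488868-130489067 on the minus strand of NCBIM37, written 5′ to 3′ along the gene, with a TATA box in capitals.
Cxcr4: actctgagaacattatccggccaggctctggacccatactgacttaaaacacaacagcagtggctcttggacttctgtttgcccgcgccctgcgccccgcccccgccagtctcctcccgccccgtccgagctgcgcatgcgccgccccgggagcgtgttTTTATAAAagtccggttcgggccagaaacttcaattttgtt
The capitals hold the letters TATAAA on both strands, overlapping, and begin 41 bases before the start site. None of the other 4 motifs searched below was found in these letters.

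The other receptors at least 2-fold lower were Ccr10, Cxcr3 and Ccr6, which are best known from lymphocytes. Ccr10 went from 542 to 173 reads over 4 windows, a ratio of 0.331 (0.278 to 0.394), or −1.59 on the log2 scale. Its strongest window held between 243 and 320 reads in untreated cells and between 76 and 94 after IL-6. The span lies within the annotated gene Cntnap1 on the opposite strand, and DNase I reads carry no strand that would separate them. Cxcr3, the receptor of Cxcl9 and Cxcl10 on activated T cells, went from 149 to 51 reads, a ratio of 0.355 (0.253 to 0.491). Of the 149 reads, 124 lay in 1 of its 4 windows, and no window held more than 20 reads after IL-6. Ccr6 went from 132 to 57 reads, 44.0 to 19.7 per window, with a ratio of 0.448 (0.323 to 0.616). All 4 stayed at or above the median of all genes in the IL-6 library, with 12.6 to 44.9 reads per window.

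Of the ligands, only Ccl3 and Ccl9 were at least 2-fold lower, and both lie in 1 gene cluster on chromosome 11. Ccl3, also called macrophage inflammatory protein 1 alpha, had 127 and 26 reads in its 2 windows in untreated cells and 38 and 7 reads after IL-6. Only the ranked reads are known, and not which window held which number. The ratio over the span was 0.305 (0.214 to 0.428), a log2 ratio of −1.70. Ccl9, a CC chemokine of myeloid cells, went from 167 to 62 reads over 6 windows, with a ratio of 0.385 (0.283 to 0.519). Its 4 windows with the start site and exons 1 and 2 went from 159 to 49 reads, a ratio of 0.320 (0.227 to 0.443), while the 2 windows with exons 3 and 4 had 8 and then 13 reads. The strongest window of Ccl9 held 110 to 114 reads in untreated cells and 16 to 22 after IL-6. As at Cxcr4, the lower signal was in the stretch that includes the start site, and its place within the 4 windows is not resolved.

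The members at least 2-fold higher after IL-6 were Cxcl16, Ccl2, Cxcr7 and Ccl20, and their levels in untreated cells were low except at Cxcr7. Cxcl16, a membrane-bound ligand and scavenger receptor of macrophages, had 9 reads over 6 windows and then 25, a ratio of 2.88 (1.30 to 7.02). Ccl2, the main monocyte attractant, had windows of 5, 4 and 1 reads in untreated cells and of 15, 8 and 3 after IL-6, which gave 3.33 and 9.0 reads per window and a ratio of 2.70 (1.26 to 6.27). Ccl20 went from 11 to 22 reads with an interval that held 1 (0.965 to 4.74). Cxcr7, an atypical receptor that takes up Cxcl12 without G-protein signaling, had windows of 15 and 9 reads and then of 36 and 21, with a ratio of 2.47 (1.51 to 4.15). It was the only receptor whose interval lay above 1, and its level went from 12.0 to 29.6 reads per window. At 4.33 to 9.0 reads per window after IL-6, the 3 ligands were near or below the middle of all genes, whose median was 8.14.

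The start site lies inside the windows of 31 of 39 ligands and of only 4 of 20 receptors, beside 58.5% of all genes. Most chemokine receptors have their coding sequence in a distal exon, and the median distance from start site to start codon was 74 bp for ligands and 3504 bp for receptors. For most receptors the values therefore describe the coding exon and not the promoter. The 4 receptors with the start site inside were Ccr7, Ccr10, Cxcr4 and Ccr1l1. Their median level was 46.9 reads per window in untreated cells and 19.9 after IL-6, and 2 of the 4 were at least 2-fold lower. The other 16 receptors had medians of 16.1 and 17.4. Of the 15 tested, 2 were at least 2-fold lower and 1 higher, beside 13.4% and 1.71% of all genes. This split turns on few bases at Cxcr3 and Cxcr5. The start site of Cxcr3 is at 98929608, and its windows end at 98929600. That of Cxcr5 is at 44334504, and its windows end at 44334500. Both genes had an interval below 1, so nothing is read from the split. The 31 ligands with the start site inside had medians of 6.33 and 7.71 reads per window in untreated and IL-6-treated cells. The 8 without it had 5.50 and 4.50. At Ccr1l1, Ccl26 and Ccl27b the annotated start site is the start codon, 0 bp away, so their windows may not hold the promoter.

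The promoters of several ligands hold the letters of an NF-kB site, the motif of the factor family that drives chemokine genes in activated macrophages. The 200 bases before the annotated start site were read from NCBIM37 for the 59 members and 22600 genes, and both strands were searched. GGG, any 2 bases and TTTCC (NF-kB) were found in 8 of 39 ligands (20.5%) and in 1 of 20 receptors (5%), beside 1.11% of all genes. The ligands were Ccl2, Ccl5, Ccl9, Ccl20, Cxcl1, Cxcl2, Cxcl3 and Cxcl5, and the receptor was Ccr3. The TATA box (TATAAA) was found in 33.3% of ligands, 25% of receptors and 10.2% of all genes, GAGGAA (PU.1) in 23.1%, 30% and 19%, and TTGCNNAA (C/EBP) in 7.69%, 15% and 6.96%. TTCNNNGAA (STAT), the motif of the factors that IL-6 activates, was found in 4 ligands (Ccl2, Ccl17, Ccl24 and Cxcl14; 10.3%), in 0 receptors and in 5.41% of all genes. A match is a description of letters and not of a bound site. At Ccr1l1, Ccl26 and Ccl27b the annotated start site is the start codon, so the letters before it may not be a promoter.

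The promoters of 5 ligands are shown to set the letters beside the direction of the signal, first Ccl3 and Ccl9, which were lower after IL-6, then Ccl5 and Ccl2, whose intervals lay above 1, and Cxcl2, whose interval held 1. All are written 5′ to 3′ along the gene and end at the base before the start site, and capitals mark matches to the 5 motifs on either strand. Ccl3 lies at chr11:83462858-83463057, Ccl9 at chr11:83392139-83392338 and Ccl5 at chr11:83344021-83344220, all on the minus strand. Ccl2 lies at chr11:81848873-81849072 and Cxcl2 at chr5:91332699-91332898, both on the plus strand.
Ccl3: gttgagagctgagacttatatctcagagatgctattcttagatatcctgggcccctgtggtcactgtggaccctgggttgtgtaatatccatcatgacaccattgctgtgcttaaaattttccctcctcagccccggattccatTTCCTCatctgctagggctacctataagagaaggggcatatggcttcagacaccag
Ccl9: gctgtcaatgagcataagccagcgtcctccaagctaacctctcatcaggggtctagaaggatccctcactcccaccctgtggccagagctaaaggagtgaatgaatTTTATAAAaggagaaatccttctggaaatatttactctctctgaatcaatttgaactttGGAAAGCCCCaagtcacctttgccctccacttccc
Ccl5: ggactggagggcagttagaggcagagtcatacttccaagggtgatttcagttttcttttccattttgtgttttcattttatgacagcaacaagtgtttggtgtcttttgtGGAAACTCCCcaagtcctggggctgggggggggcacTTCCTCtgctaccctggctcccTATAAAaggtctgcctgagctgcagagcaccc
Ccl2: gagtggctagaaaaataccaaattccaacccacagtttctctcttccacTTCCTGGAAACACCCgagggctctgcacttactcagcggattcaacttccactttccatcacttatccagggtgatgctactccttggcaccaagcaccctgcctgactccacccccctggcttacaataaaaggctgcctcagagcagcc
Cxcl2: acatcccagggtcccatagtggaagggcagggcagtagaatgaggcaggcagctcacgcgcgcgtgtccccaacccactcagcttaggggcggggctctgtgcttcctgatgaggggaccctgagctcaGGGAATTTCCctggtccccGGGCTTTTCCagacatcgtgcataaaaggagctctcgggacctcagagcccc
The capitals of Ccl3 are a PU.1 match that begins 56 bases before the start site. In Ccl9 they are TATA box letters at 94 and an NF-kB match at 35 bases before it, and in Ccl5 an NF-kB match at 90, a PU.1 match at 54 and a TATA box at 32. In Ccl2 a STAT match at 151 and an NF-kB match at 146 overlap, and Cxcl2 holds NF-kB matches at 71 and 52. The windows of the table cover all 200 bases of Ccl3, Ccl9 and Cxcl2, the nearest 172 of Ccl2 and the nearest 80 of Ccl5. The NF-kB match of Ccl5, from 90 to 81 bases before the start site, thus lies outside the measured windows. NF-kB letters were present before a gene with lower signal (Ccl9) and before genes with higher signal (Ccl2 and Ccl5). They were also present before a gene whose interval held 1 (Cxcl2). Ccl2 passed the filter only through the IL-6 library.

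The other chemokine genes known from myeloid cells stayed under a 2-fold difference, some with wide intervals. Of the 18 myeloid genes chosen, 15 had more than 21 reads in at least 1 library, and their median log2 ratio was −0.02. At least 2-fold lower were 3 (Cxcr4, Ccl3 and Ccl9) and higher 1 (Ccl2), beside 13.4% and 1.71% of all genes. Ccl2, Cxcl1 and Cxcl2 passed the filter only through the IL-6 library, so nothing is read from the higher count. Ccl5, a ligand of T cells and monocytes, went from 76 to 119 reads over 7 windows, with a ratio of 1.63 (1.21 to 2.20). Its strongest window held 19 to 32 reads in untreated cells and 35 to 59 after IL-6. Cxcl12, the ligand of Cxcr4, went from 75 to 119 reads over 15 windows, a ratio of 1.65 (1.22 to 2.23) at a low level of 5.00 and 8.24 reads per window. These 2 ligands were the only others of the list with an interval away from 1.

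Among the remaining ligands of that list, Ccl4, the close relative of Ccl3, had 75 and 52 reads, with a ratio of 0.720 (0.495 to 1.04). Ccl6 had 56 and 52 reads. Cxcl1 and Cxcl2, which attract neutrophils, had 16 and 22 reads and 19 and 21 reads, and Cxcl10, an interferon-induced ligand of Cxcr3, had 42 and 29. All of these intervals held 1, and they also held a 1.5-fold difference, which was thus not detectable at this depth. The platelet chemokines Pf4 and Ppbp had 9 and 6 reads and 15 and 19 reads, under the limit of 21.

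The inflammatory receptors of monocytes and neutrophils had intervals that held 1, most of them wide. Ccr1, a receptor of Ccl3, had 28 and 23 reads (0.469 to 1.54). Ccr2, the receptor of Ccl2, had 21 and 20 (0.509 to 1.92), not above the limit of 21. Cxcr2, the receptor of Cxcl1 and Cxcl2, had 27 reads in each (0.586 to 1.84). Cx3cr1, a receptor of monocytes and tissue macrophages, had 55 and 71 reads, 18.3 and 24.6 per window, with a ratio of 1.34 (0.929 to 1.94). The intervals of all 4 also held a 1.5-fold higher value, so a small difference cannot be read from them. The windows of all 4 lie away from the start site, which is 15948 bp from the start codon at Cx3cr1 and 3735 bp at Ccr2.

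Receptors as a class lost a larger share of their reads than ligands. The summed reads of the 20 receptors went from 3118 to 1862, a ratio of 0.620 (0.585 to 0.657), and those of the 39 ligands from 2492 to 2118, a ratio of 0.882 (0.832 to 0.935). The ligand ratio over the receptor ratio was 1.42 (1.31 to 1.55), an interval that covers counting error and not the spread between genes. The sums are governed by few genes, since Ccr7, Cxcr5, Ccr10, Cxcr4 and Ccr9 held 72.7% of the receptor reads in untreated cells and Ccl25, Cx3cl1, Ccl24, Ccl9 and Cxcl17 held 55.7% of the ligand reads. By gene the classes were closer, with a median log2 ratio of 0.22 for 28 ligands and 0.08 for 19 receptors. At least 2-fold lower were 4 receptors (21.1%) and 2 ligands (7.14%), beside 13.4% of all genes. At least 2-fold higher were 1 receptor (5.26%) and 3 ligands (10.7%), beside 1.71% of all genes. The interval lay below 1 for 6 receptors and 4 ligands and above 1 for 1 receptor and 9 ligands. Of these 9 ligands, Cxcl16, Ccl2 and Cxcl13 passed the filter only through the IL-6 library, as did all 3 ligands counted as 2-fold higher. Nothing is therefore read from these counts of higher ligands. Without the filter the median log2 ratios were 0.22 for ligands and 0.07 for receptors. The 31.6% of receptors below 1 and the 32.1% of ligands above 1 were close to the 34.4% and 29% of all genes. The 14.3% of ligands below 1 and the 5.26% of receptors above 1 were under these shares. With the transcript of fewest windows for each gene, the summed ligand reads were higher after IL-6, with a ratio of 1.08 (1.01 to 1.16).

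Level and ratio went together over all genes, and the receptors had the higher levels. Of genes with 20 to 50 reads per window over both libraries, 85.9% were lower after IL-6, with a median log2 ratio of −1.01, and of those with 5 to 10, 36.3% were lower, with a median of 0.17. In the class of 20 to 50 stood 9 receptors, of which 5 were lower, and 4 ligands, of which 3 were lower. In the class of 10 to 20, where 57.4% of all genes were lower, 1 of 6 receptors and 4 of 7 ligands were lower. Among genes with 5 to 10 reads per window the numbers were 1 of 3 receptors and 4 of 12 ligands. The median log2 ratio of the 13 members in the class of 20 to 50 was −0.74. The one member with at least 50 was Ccr10, in a class where 99.6% of genes were lower. Level and ratio are computed from the same reads, and the part of the level in the difference between ligands and receptors was not tested further.

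**Figure D3:**
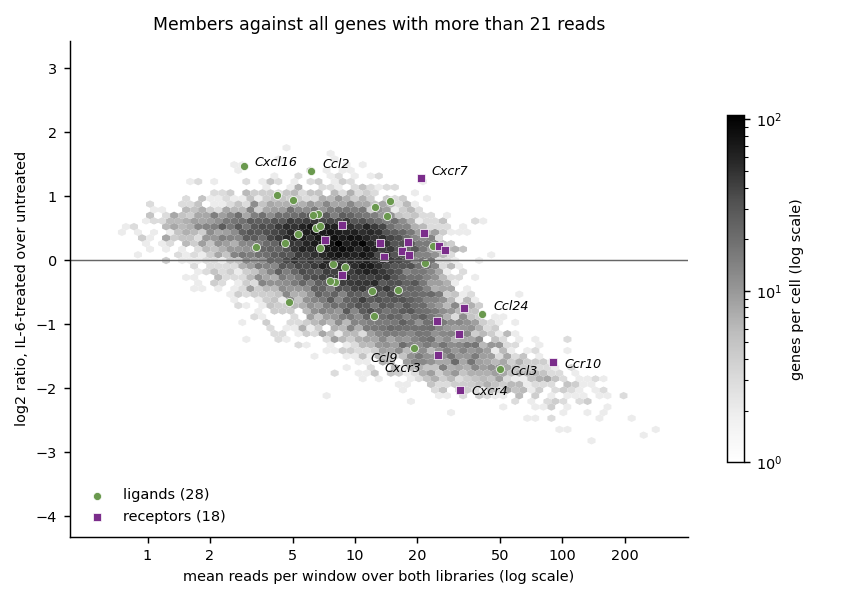
Log2 ratio (0.5 reads added to each library) against the mean reads per window over both libraries (log scale), for the 28 ligands (green circles), 18 of the 19 receptors (purple squares) and the 18472 genes of the table with over 21 reads in at least 1 library (gray cells, darker for more genes, log scale). The cloud of all genes turns down above about 20 reads per window, the lower receptors lie along it, and Cxcr7 lies above it.

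The subfamilies were described by their counts on the scaling of the table, CXC ligands first. Of 10 tested, 8 had a higher value after IL-6, 5 had an interval above 1 and 0 below it, beside 29% and 34.4% of all genes. Cxcl16, Cxcl13, Cxcl1 and Cxcl2 passed the filter only through the IL-6 library, where their values are higher. Cxcl2, with 19 and 21 reads, passed only after scaling. These counts therefore carry no weight of their own. Most of these ligands had few reads, and of all genes with 5 to 10 reads per window 36.3% were lower after IL-6. Of 16 CC ligands 7 were higher, 4 had an interval above 1 and 4 below it, with a median of −0.08. The 10 CC receptors had a median of 0.07 and the 7 CXC receptors one of 0.05. By function, 1 of 10 inflammatory ligands tested was at least 2-fold lower (Ccl3) and 1 higher (Ccl2), beside 13.4% and 1.71% of all genes. The median of these 10 was 0.30. None of the 5 homeostatic ligands tested reached 2-fold, and their median was 0.54. Cxcl12, Cxcl13 and Cxcl14 had intervals above 1, and Ccl25, the thymus-expressed ligand, had one below 1. Ccl2 and Ccl20 among the CC ligands also passed the filter only through the IL-6 library, and the lists by function hold some of these genes. These lists are small, and each contrast is of 1 library with 1 library.

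The ligands with a single main receptor were set beside it. In 5 of 7 pairs the log2 ratios had opposite signs, and in 2 of these 5, Cxcl12 with Cxcr4 and Cxcl13 with Cxcr5, both intervals lay away from 1. Cxcl12 had a log2 ratio of 0.72 and Cxcr4 one of −2.02. Cxcl13, the B cell follicle ligand, had 17 and 32 reads (ratio 1.95, 1.05 to 3.75), and Cxcr5 had 622 and 312 reads over 19 windows (ratio 0.521, 0.453 to 0.598). In both pairs the receptor was thus lower and the ligand higher after IL-6, from ligand levels of 5.00 and 3.40 reads per window. Ccl20 and Ccr6 had log2 ratios of 1.02 and −1.15, with an interval that held 1 for the ligand. Ccl25 and its receptor Ccr9 went the other way around, with 562 and 295 reads (ratio 0.545, 0.472 to 0.629) and with 162 and 190 reads (ratio 1.22, 0.982 to 1.51). In Cxcl16 with Cxcr6 (21 and 30 reads) and Xcl1 with Xcr1 (25 and 29 reads, 53 and 54 reads) both log2 ratios were above 0. Cx3cl1 had a log2 ratio of −0.04 and Cx3cr1 one of 0.42, and both intervals held 1. With the transcript of fewest windows Ccl25 had a log2 ratio of 0.21 and Cx3cl1 one of 0.71, and these pairs then had the same sign, so the count of 5 depends on the transcript.

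A value over a whole gene could hide opposite changes, and Cx3cl1 did. This ligand, fractalkine, is made as a membrane protein with a mucin stalk, and its 13 windows on chromosome 8 had 287 reads in untreated cells and 268 after IL-6. The 7 windows with the start site and exon 1 went from 96 to 152 reads, a ratio of 1.64 (1.26 to 2.15). The 2 windows with exon 2 went from 23 to 39 reads (ratio 1.76, 1.03 to 3.09), and the 4 windows with exon 3, the last exon, from 168 to 77 (ratio 0.476, 0.358 to 0.627). The intervals of the 5′ and 3′ stretches did not overlap, so that the strongest stretch in untreated cells was at the 3′ end and the levels after IL-6 were even along the gene, between 19.98 and 22.54 reads per window. With the transcript of fewest windows, which covers the 5′ part, the log2 ratio of Cx3cl1 was 0.71.

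Ccr9, Ccl25 and Cxcl12 were resolved in the same way. The first 7 windows of Ccr9 had 119 and 141 reads and its last 3, which hold exon 3, had 43 and 49, with ratios of 1.23 (0.957 to 1.58) and 1.18 (0.769 to 1.83). At Ccl25 the first 34 windows, with the start site, went from 560 to 290 reads (ratio 0.538, 0.465 to 0.621), while the stretches downstream had 42 and 47, 8 and 10, 31 and 25, and 30 and 28 reads. The intervals of these downstream stretches held 1, and some also held the 0.538 of the first 34 windows. Cxcl12 was higher in each of its 3 stretches, from 38 to 60, from 16 to 28 and from 21 to 31 reads. Only the interval of its first stretch lay above 1.

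**Figure D4:**
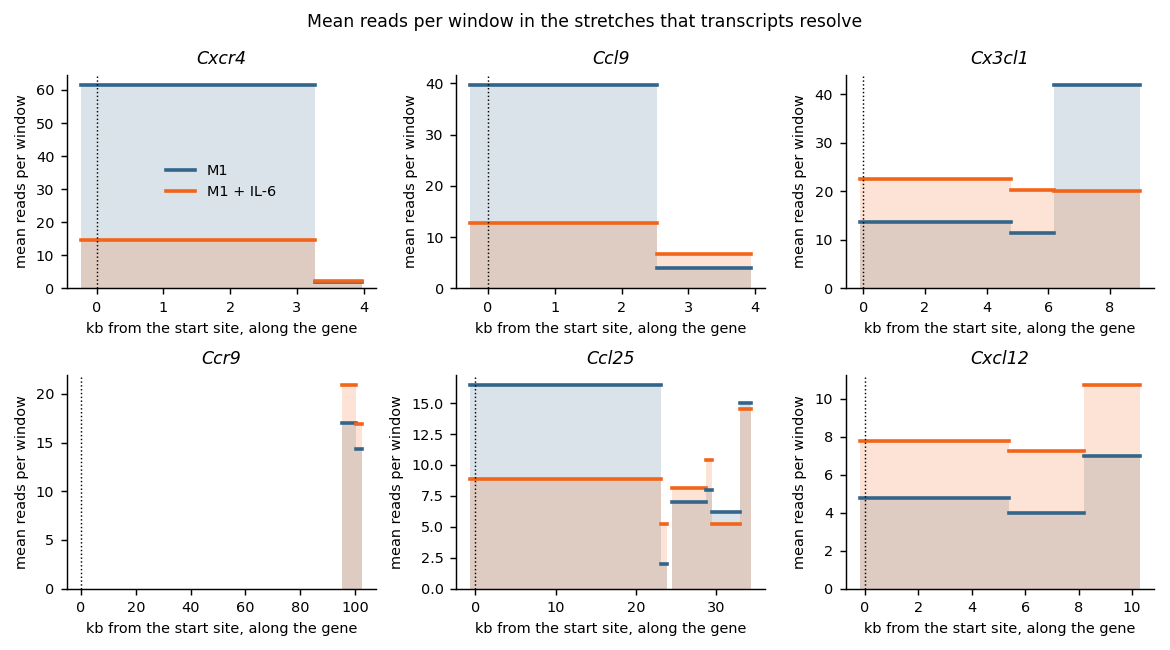
Mean reads per window in the stretches that transcripts with shared ends resolve, against the distance in kb from the start site along the gene (dotted line), for 6 members in untreated (blue) and IL-6-treated (orange) cells, 1 library each. In Cxcr4 and Ccl9 the blue line stands above the orange one at the start site and not at the 3′ end. In Cx3cl1 the order turns between the 5′ stretches and the last.

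Chemokine genes lie in clusters, and the change differed between neighbors. On chromosome 11 the 5 genes from Ccl5 to Ccl4 went from 527 to 330 reads, 20.3 to 13.2 per window, with a ratio of 0.650 (0.565 to 0.747). Of the 5, 4 were lower and Ccl5 at the end of the cluster was higher. The 6 genes from Ccl2 to Ccl1 on the same chromosome had 132 and 147 reads (ratio 1.16, 0.908 to 1.47), with a higher value at Ccl2 at one end and a log2 ratio of −0.35 at Ccl1, the other. The intervals of these 2 clusters did not overlap. The 7 CXC ligands from Cxcl5 to Cxcl2 on chromosome 5 had 109 and 124 reads (ratio 1.18, 0.906 to 1.54), an interval that held 1. Ccl22, Cx3cl1 and Ccl17 on chromosome 8 had 424 and 472 reads together (ratio 1.16, 1.01 to 1.32), of which Ccl22, a macrophage and dendritic cell ligand of Ccr4, held 71 and then 130.

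**Figure D5:**
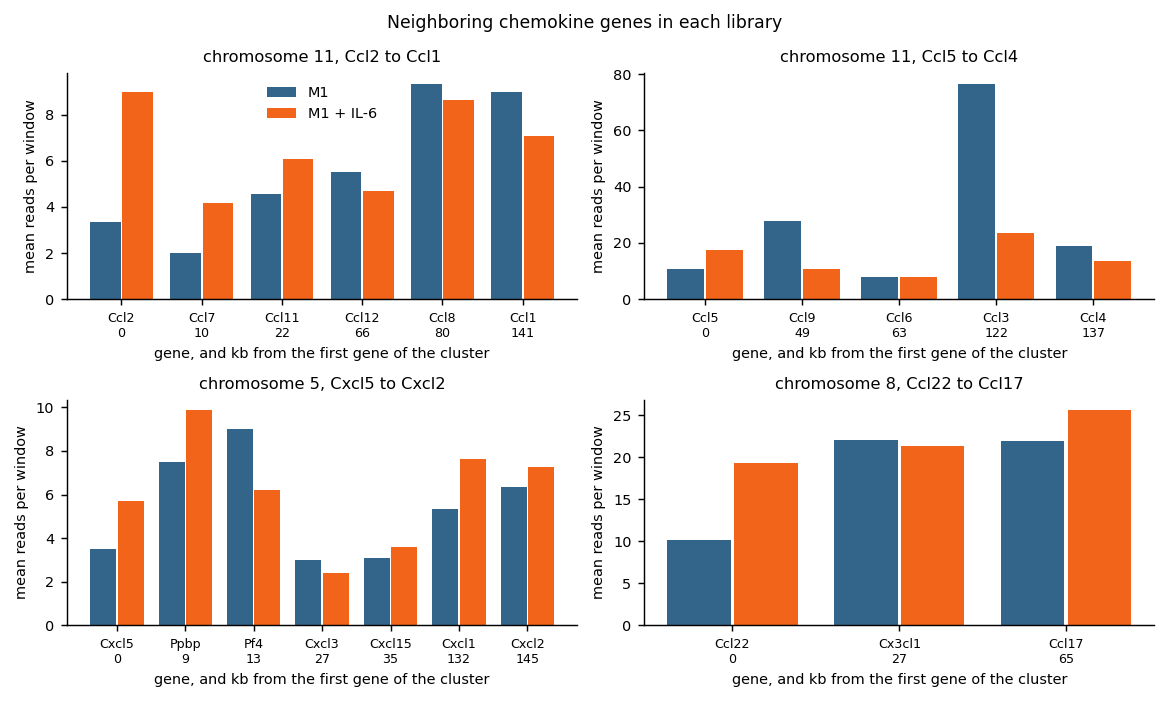
Mean reads per window of each gene in 4 clusters in untreated (blue) and IL-6-treated (orange) cells, 1 library each, with the distance in kb from the first gene of the cluster under each name. Ccl3 and Ccl9 are lower after IL-6 beside a higher Ccl5 (top right), and Ccl22 is higher beside a Cx3cl1 of like height in both libraries (bottom right).

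No reads were found at 5 ligands in untreated cells, Ccl19, Ccl21a, Ccl21b, Ccl21c and Ccl27b, the lymph node and skin ligands in a duplicated stretch of chromosome 4. After IL-6, Ccl21b had 2 reads and the other 4 had 0, which allows up to 3 reads for each. Of the 32-letter words in their windows, 0% occur once in the genome for Ccl19, Ccl21a, Ccl21c and Ccl27b, and 2.14% for Ccl21b. Reads of 32 letters from these genes would match more than 1 place, and the sources used here do not state how the authors treated such reads. An absence of reads at these 5 genes is therefore no measure of their chromatin. Over 90% of words were unique in 48 of the 59 members, and 6 ligands were below 50%, the last being Ccl27a with 30.2%.

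The pathway downstream of the receptors was followed in a list of 25 genes for G proteins, kinases, arrestins, RGS proteins and Rac signaling. Of these, 7 (28%) were at least 2-fold lower after IL-6 and 0 higher, beside 13.4% and 1.71% of all genes. The interval lay below 1 for 16 (64%) and above 1 for 3 (12%), beside 34.4% and 29% of all genes. Rgs2, which turns off G protein signals, had 162 and 40 reads and a log2 ratio of −1.95. Arrb2, the beta-arrestin that desensitizes receptors, had −1.54, and the receptor kinases Adrbk1 and Grk6 had −1.51 and −1.05. Rac2, the GTPase of leukocyte migration, had −1.48, Rgs14 had −1.22, and Gnai2, the inhibitory G protein of chemokine receptors, had −1.10. All 7 had 23.9 to 90.8 reads per window in untreated cells and 8.22 to 32.6 after IL-6. The part of the level in these ratios was not tested. The 3 genes with intervals above 1, Gnb1, Pik3cg and Dock2, had log2 ratios of 0.27, 0.20 and 0.10. The list had a median log2 ratio of −0.30.

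Atypical receptors bind chemokines without the usual signal, and 5 were in the table. Ccrl1 went from 138 to 56 reads (ratio 0.421, 0.303 to 0.579) and Ccbp2 from 87 to 57 (ratio 0.680, 0.478 to 0.961). Darc had 15 and 23 reads and Ccrl2 had 30 in each library, so that Cxcr7 was the only one of the 5 with an interval above 1.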

How the data were processed

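DHS-seq was measured in untreated and IL-6-treated M1 cells, with 1 library each. The authors sequenced short fragments from nuclei lightly digested with DNase I, used BWA for alignment to NCBIM37, and made the table in Seqmonk. The deposited values are signal, the mean and SD of reads over 700-bp windows, for 55432 transcripts. A further column is empty. One read was worth 1 in the untreated and 1.038 in the IL-6 column, a scaling that the paper's text does not name.

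Reads were recovered as mean × windows / value of 1 read, and were whole within 0.05 in 100% of rows. The SD gave the reads of single windows for spans of up to 3 windows (uniquely in 44 of 60 cases) and bounds on the strongest window. Transcripts with a shared end resolved stretches. The scripts were tested on simulated data.

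With 1 library per condition no test was made. Genes named with values are the myeloid list, the 5 highest and 5 lowest ratios, the 5 highest levels in each library, genes without reads and single-partner pairs, 40 in all. Any other member was named after its values had been seen. The members and lists were chosen with earlier results of these data known. Alternatives covered the scaling, added reads, the filter, the transcript and the fold. Start sites came from GENCODE M1 and letters from NCBIM37. Distal regions outside coding spans are not analysed here. Values of 1 receptor are not reported here, and it stays in the counts and sums. Tools were Python 3.11.15, scipy 1.17.1, numpy 2.4.6, pandas 2.3.3, numba 0.67.0, pysam 0.24.0 and matplotlib 3.10.9.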

Additional observations from a re-analysis of the deposited data

How the results depend on the processing

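Of 326 alternative values, 271 stayed within the limit set for their kind, 42 moved further and 13 changed direction. The limit was the counting interval for ratios, 1.5 times for counts and a small fixed change for medians. Many values could not move by construction, such as untreated levels under another scaling or single ratios under another filter. The count of 271 is therefore no measure of robustness. The scaling between libraries mattered most. Scaling to the median ratio of 88 single-window genes with at least 22 reads in both libraries makes 1 IL-6 read worth 3.81 and shifts every log2 ratio by 1.88. The median of all genes then is 1.94, and 85.8% of them are at least 2-fold higher, with 0.0624% at least 2-fold lower. Of 54 members, 47 were then at least 2-fold higher and 0 lower, the median log2 ratios were 2.03 for members, 2.09 for ligands and 1.94 for receptors, and the median IL-6 levels were 26.7 for ligands and 63.6 for receptors. The summed ratios became 3.24 for ligands and 2.27 for receptors. The log2 ratios became 1.04 for Ccl24, 1.00 for Ccl25, 0.17 for Ccl3, 0.51 for Ccl9, 0.28 for Ccr10, 0.72 for Ccr6, 0.39 for Cxcr3 and 0.93 for Cxcr5, while Cxcr4 stayed below 0 at −0.15. These are the named members with an interval below 1. Ccr7 also had one but is not a named member. Every log2 ratio shifts alike, so the order of genes and the ligand over receptor ratio of 1.42 cannot change with the scaling. The other scalings tried changed no direction among the values with an interval away from 1.

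With the transcript of fewest windows the summed ligand ratio was 1.08, the ligand median 0.34, the ligand over receptor ratio 1.84, and the log2 ratios of Ccl25 and Ccl9 were 0.21 and 0.72, since these transcripts cover other stretches. A 1.5-fold limit gave 11 lower and 10 higher members, beside 23.2% and 10.8% of all genes. With more than 50 reads required, 6 of 29 members were lower and 1 higher, beside 14.7% and 0.593% of all genes. With 0.5 reads replaced by 5, 3 of 47 were higher, beside 0.953% of all genes. The main level of 5.50 is over all 39 ligands, and leaving out those without reads in either library gave a median of 6.33 in untreated cells. No paired analysis was possible because there are only 2 libraries, 1 untreated and 1 treated. The depth limits most ligands, with a median of 5.50 reads per window.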
